A study of Mus musculus with 9 samples.

Results

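Aminoacyl-tRNA synthetases are the enzymes that join each amino acid to its transfer RNA before protein synthesis. The analysis covers the genes of 36 such enzymes, taken by symbol from the array's probe sets that name 1 gene. Of these, 35 were found, 19 coding for cytosolic and 16 for mitochondrial enzymes, among 18193 genes named on the array, and they were read by 72 of its 45101 probe sets. Dars was not analysed here, and 1 probe set that names Aars together with another gene was left out. The brightest probe set stood for each gene, and its other probe sets were read beside it. All 35 brightest probe sets, and 65 of the 72 probe sets, lay above the filter on dim signals (a mean of 5.24 on the log2 scale, a signal of 21.7).

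The samples were cardiac ventricles of male mouse fetuses at E18.5, shortly before birth, that differ in Esrrg, the gene of the nuclear receptor ERRγ. The groups were wild type (ERRg +/+, WT), heterozygote (ERRg +/-, HET) and knockout (ERRg -/-, KO), with 3 arrays each and 1 array per sample. The labels call the samples biological replicates but do not say whether an array holds 1 ventricle sample or a pool of 3, and they give neither the strain nor how the allele was made. The p-values therefore measure the spread between these arrays.

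ERRγ is a transcription factor that binds a short response element and is known in heart for driving genes of mitochondrial oxidative metabolism around birth. Charging takes place separately in cytosol and mitochondria, mostly by enzymes from separate genes, while Gars and Kars serve both compartments. Eprs codes for a bifunctional enzyme that charges both the glutamate and the proline tRNAs, and it sits with the Dars, Iars, Kars, Lars, Mars, Qars and Rars enzymes and the scaffold proteins of Aimp1, Aimp2 and Eef1e1 in the multisynthetase complex. Many cytosolic synthetase genes are known targets of ATF4, the transcription factor of the amino acid response.

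RefSeq (GRCm38.p6) promoters were available for 26 of the 35 genes. None was found for Cars, Hars, Lars, Nars, Rars, Vars, Wars, Hars2 and Pars2, which were not searched. Whether RefSeq lacks these or they were not matched was not checked. The 250 bases before the start were searched on both strands for TNAAGGTCA, the element bound by ERR receptors, TGATGNAA, the amino acid response element bound by ATF4, and CACGTG, the E-box, whose letters read the same on both strands. Counted by gene, TNAAGGTCA matched none of the 26, against 1.30% of 27025 genes with a promoter. TGATGNAA matched 3 (Aars, Gars and Tars, 11.5%) against 3.91%, and CACGTG matched 3 (Aars, Farsb and Iars, 11.5%) against 6.86%. Shown 5′ to 3′ are the promoter of Eprs, the gene with the largest difference, and the 3 with the ATF4 element, with every match in capitals. In Aars the first capitals are the E-box and the second the ATF4 element; in Gars and Tars the capitals are the ATF4 element, which in all 3 reads on the opposite strand.
Eprs, chr1:185362794-185363043, plus strand: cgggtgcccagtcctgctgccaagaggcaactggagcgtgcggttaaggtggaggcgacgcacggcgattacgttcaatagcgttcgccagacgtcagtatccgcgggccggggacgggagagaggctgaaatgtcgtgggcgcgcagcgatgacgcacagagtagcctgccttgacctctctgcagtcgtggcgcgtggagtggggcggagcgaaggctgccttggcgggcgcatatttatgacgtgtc
Aars, chr8:111033592-111033841, plus strand: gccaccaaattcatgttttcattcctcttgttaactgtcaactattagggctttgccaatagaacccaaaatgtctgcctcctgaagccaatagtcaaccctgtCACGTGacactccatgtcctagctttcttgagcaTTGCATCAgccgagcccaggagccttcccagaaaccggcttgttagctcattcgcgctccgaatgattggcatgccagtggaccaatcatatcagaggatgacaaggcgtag
Gars, chr6:55037751-55038000, plus strand: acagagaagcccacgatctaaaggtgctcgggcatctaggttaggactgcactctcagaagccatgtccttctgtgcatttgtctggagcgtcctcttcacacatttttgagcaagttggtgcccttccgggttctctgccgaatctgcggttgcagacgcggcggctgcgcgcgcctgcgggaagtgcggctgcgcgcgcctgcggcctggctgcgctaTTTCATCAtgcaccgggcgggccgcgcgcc
Tars, chr15:11399659-11399908, minus strand: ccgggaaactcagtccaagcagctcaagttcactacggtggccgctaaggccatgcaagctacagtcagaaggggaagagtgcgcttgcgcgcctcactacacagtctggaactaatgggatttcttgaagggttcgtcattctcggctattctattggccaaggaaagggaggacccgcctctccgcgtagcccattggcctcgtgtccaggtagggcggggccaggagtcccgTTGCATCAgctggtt
The Eprs stretch holds none of the 3 motifs. A match is a description of letters in this window and not a site of binding.

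The targeted gene was checked first. Esrrg read 281, 213 and 206 in the WT arrays, 162, 164 and 162 in the HET arrays and 58.3, 58.1 and 39.3 in the KO arrays, in MAS5 signal units. The genotypes were apart and in the order of gene dose, with the KO mean at 22.2% of WT (limma, log2 difference -1.88, adjusted p = 0.00018), and the exact permutation test (two-sided) over these 6 arrays had p = 0.1, its lowest possible value. The 11 ventricular myocyte markers all lay above the filter, none passed the test between KO and WT (9 lower, median -0.17, and 0.01 with the batch described next as a block), and their summed signal ran from 207337 to 222641 in WT and from 185311 to 202424 in KO. Array medians ran from 36.6 to 45.9. The labels name no batch. The arrays were parted into 2 sets, called array batches here, at the widest gap in the log2 ratio of the spike-in controls thr and dap. The 3 WT arrays and HET replicate 1 lay between -1.40 and -1.22, and the KO arrays together with HET replicates 2 and 3 between -1.67 and -1.54. Within the first set the gap from WT replicate 2 (-1.40) to HET replicate 1 (-1.29) was almost as wide. Whether the sets are batches of handling was not tested. By these sets WT and KO share no batch, and only HET links them. HET replicate 1 is the only HET array in the batch of WT. Each difference from WT with the batch as a block therefore rests on that array. Its array quality weight, at 0.455, was the lowest of the 9 arrays. With the batch as a block Esrrg stood at -1.89 between KO and WT (limma, adjusted p = 0.168), so its call was lost.

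Eprs was higher in KO than in WT by 1.15 ± 0.15 on the scale log2(signal + 16) (SE, limma, Benjamini-Hochberg adjusted p = 0.00139), a 2.21-fold difference. On its brightest probe set the signals were 257, 365 and 229 in the WT arrays, 396, 485 and 430 in the HET arrays and 618, 653 and 635 in the KO arrays. No array of a genotype overlapped another genotype, and the HET arrays lay between the other two. The means were 284 ± 71.7 in WT, 437 ± 45.0 in HET and 635 ± 17.2 in KO (SD, n = 3 each), so HET stood at 154% and KO at 224% of WT. Of all 13028 genes tested between KO and WT, 1.62% passed in either direction with 0.737% higher and 0.883% lower in KO. Eprs was the one gene of the 35 with all 3 genotypes apart in the order of gene dose, a pattern that 0.737% of all genes tested showed. In these bulk samples, more cells of a type and more RNA per cell cannot be told apart.

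**Figure D1:**
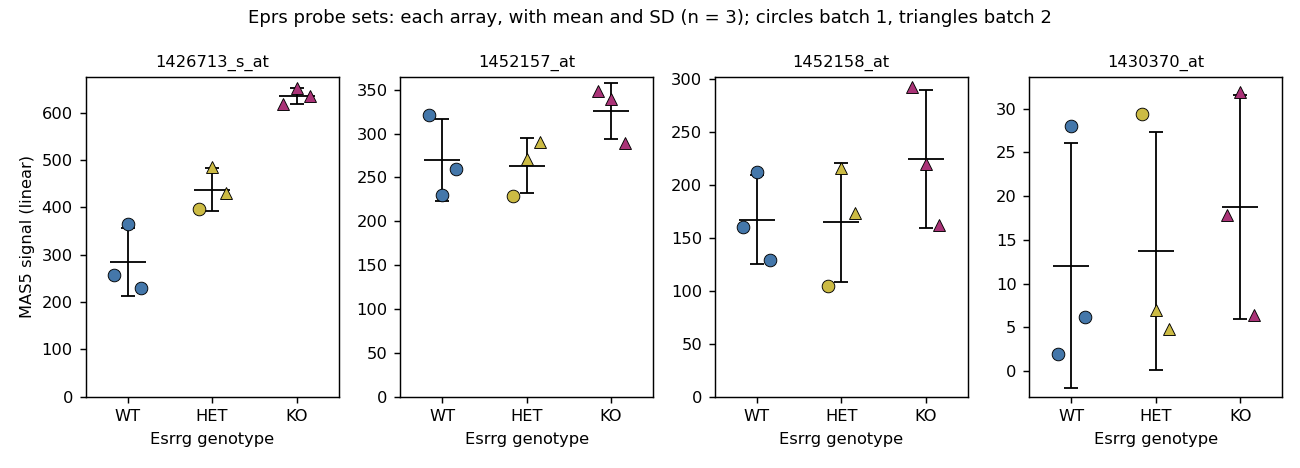
Signals of the 4 Eprs probe sets (linear MAS5 signal, each panel on its own axis) by Esrrg genotype. Points are arrays, circles for array batch 1 and triangles for batch 2, and bars are the mean and SD of 3 arrays. In the first panel the WT arrays read 229 to 365, the HET arrays 396 to 485 and the KO arrays 618 to 653, while in the other panels the genotypes overlap.

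HET minus WT was 0.62 for Eprs (limma, unadjusted p = 0.000683, adjusted p = 0.293), and KO minus HET was 0.53 (adjusted p = 0.989), so neither passed over all genes. For Eprs in each of the 3 comparisons the exact permutation test over 6 arrays had p = 0.1, its lowest possible value. KO minus WT and HET minus WT share the WT arrays. HET replicate 1, the lowest of the HET arrays at 396, lies in the batch of the WT arrays. Within that batch it was 0.49 ± 0.20 above WT, and within the other batch KO was 0.46 ± 0.16 above HET replicates 2 and 3 (SE). These add to 0.95 ± 0.25 for KO minus WT with the batch as a block (unadjusted p = 0.00201, adjusted p = 0.502), in a fit where 0.00768% of genes passed. The HET arrays themselves differed by 0.20 between batches. Without HET replicate 1, HET minus WT was 0.68 with an adjusted p of 0.0258 (limma). In that fit WT and HET share no batch, so genotype and batch cannot be told apart.

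The difference in Eprs rests on 1 of its 4 probe sets, 1426713_s_at. The suffix _s_at marks a probe set whose probes are shared by several transcripts, which can come from different genes. The array's annotation names only Eprs for it, and whether another transcript adds to its signal was not tested. Probe set 1452157_at read 321, 230 and 259 in the WT arrays, 229, 271 and 290 in the HET arrays and 349, 339 and 289 in the KO arrays, a difference between KO and WT of 0.27 ± 0.15 (SE, limma, adjusted p = 0.419). Probe set 1452158_at read 160, 212 and 129 in the WT arrays, 104, 215 and 173 in the HET arrays and 292, 219 and 162 in the KO arrays, a difference of 0.38 ± 0.25 (adjusted p = 0.497). Both had higher means in KO, and in both the KO arrays overlapped the WT and HET arrays. The fourth, 1430370_at, was under the filter in a range from 2.0 to 31.9 and had no test. With each probe set tested on its own, 2 of the 65 passed between KO and WT (0.79% of the 23540 probe sets tested did), the brightest of Eprs and the brightest of Hars. With probe sets averaged per gene, Eprs stood at 0.54 (adjusted p = 0.167).

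Set beside the other enzymes array by array, Eprs lay 1.11, 1.18 and 1.14 above its WT mean in the 3 KO arrays. The median of the other 18 cytosolic genes lay at -0.18, -0.12 and -0.12 from theirs, and that of the 16 mitochondrial genes at -0.12, -0.03 and -0.13. Eprs deviated upwards more than any other of the 35 genes in each KO array. In the HET arrays Eprs lay 0.49, 0.77 and 0.60 above its WT mean, against medians of -0.01, -0.17 and -0.16 for the other cytosolic genes. In WT its arrays spread from -0.26 to 0.37, which for 1 array was the largest upward deviation of the 35 as well.

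**Figure D2:**
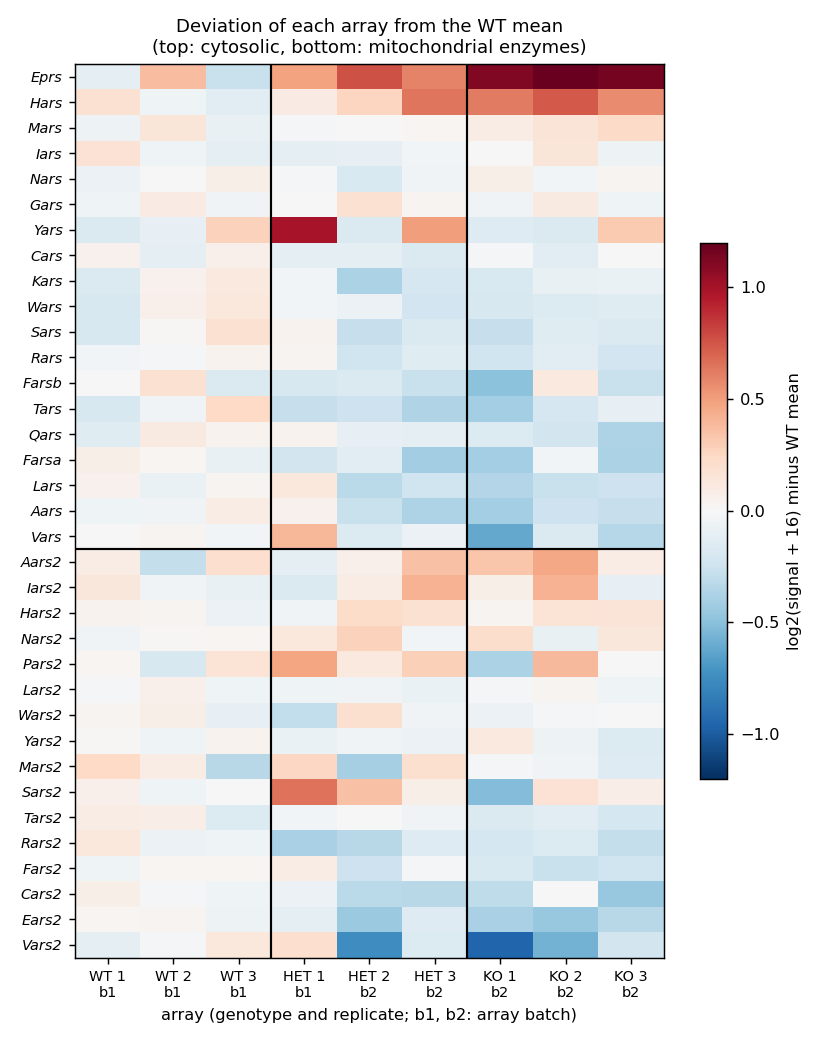
Deviation of each array from the WT mean, in log2(signal + 16), for the 35 synthetase genes (rows) in the 9 arrays (columns, with array batch b1 or b2). The Eprs row reads 1.11 to 1.18 in the KO arrays, and the only other row called between KO and WT is Hars.

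Of the 18 other cytosolic genes, 1 passed as higher in KO and none as lower, and 4 had an unadjusted p under 0.05 (17.2% of all genes tested did). The one that passed was Hars, which charges the histidine tRNA. Its signals were 1107, 935 and 884 in the WT arrays, 1042, 1163 and 1529 in the HET arrays and 1500, 1630 and 1450 in the KO arrays. The KO arrays lay above all WT arrays, and HET replicate 3 lay among them. The mean went from 975 ± 117 to 1527 ± 92.9 (SD, n = 3), a difference of 0.64 ± 0.12 (SE, limma, adjusted p = 0.029), while HET minus WT was 0.33 (adjusted p = 0.36). Blocked by batch, Hars stood at 0.29 ± 0.19 (adjusted p = 0.861), made up of 0.10 within batch 1 and 0.19 within batch 2, and HET replicates 2 and 3 lay 0.35 above HET replicate 1. The second Hars probe set, 1417024_at, differed by -0.08 (adjusted p = 0.808). Without WT replicate 2 or 3, or without any of the KO arrays, the adjusted p of Hars ran from 0.0836 to 0.135.

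Across the other cytosolic genes 13 had a lower and 5 a higher mean in KO, with a median difference of -0.18 and a range from -0.38 (Vars, valine) to 0.64 (Hars). Over all genes tested 51.6% were lower, with a median of -0.01. KO and WT signals were apart in 6 of the 18, 1 higher (Hars) and 5 lower (Aars, Lars, Qars, Rars and Vars), where 11.1% of all genes did so as higher and 13.9% as lower. In the fit blocked by batch 8 of the 18 were lower and the median was 0.04.

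Among the enzymes of the multisynthetase complex other than Eprs, 6 were tested, none passed (limma, unadjusted p under 0.05 for 2), and the median was -0.16. Lars, of the leucine enzyme, read 1137, 1036 and 1119 in the WT arrays, 1195, 874 and 928 in the HET arrays and 854, 910 and 918 in the KO arrays, a difference of -0.29 ± 0.11 (SE, adjusted p = 0.174). Qars, of the glutamine enzyme, read 1058, 1268 and 1209 in the WT arrays, 1211, 1094 and 1082 in the HET arrays and 1047, 1009 and 904 in the KO arrays, a difference of -0.25 ± 0.10 (adjusted p = 0.185). Rars, of the arginine enzyme, read 1007, 1024 and 1066 in the WT arrays, 1059, 873 and 932 in the HET arrays and 871, 946 and 878 in the KO arrays, a difference of -0.20 ± 0.09 (adjusted p = 0.292). In each of the 3 genes HET replicate 1 lay among or above the WT arrays and HET replicates 2 and 3 lay below it. With the batch as a block the differences between KO and WT were 0.11 for Lars, -0.10 for Qars and 0.03 for Rars. Kars (lysine) differed by -0.12, Iars (isoleucine) by 0.03 and Mars (methionine) by 0.16.

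Of the cytosolic enzymes outside the complex, Aars, of the alanine enzyme, had the smallest p after Hars. It read 958, 964 and 1053 in the WT arrays, 1029, 820 and 763 in the HET arrays and 740, 830 and 815 in the KO arrays, a difference of -0.31 ± 0.11 (SE, limma, adjusted p = 0.147). Here too HET replicate 1 read with the WT arrays and HET replicates 2 and 3 near the KO arrays, and the difference with the batch as a block was 0.06. Without HET replicate 1, Aars and Lars passed between KO and WT (adjusted p = 0.0409 and 0.0427) with the same differences. In that fit 840 of all 13028 genes passed, in place of 211. The genes of both subunits of the phenylalanine enzyme were at -0.27 (Farsa) and -0.21 (Farsb), Tars (threonine) at -0.23, Sars (serine) at -0.20 and Wars (tryptophan) at -0.17. Cars (cysteine) was at -0.05, Gars (glycine) at 0.005 and Nars (asparagine) at 0.02.

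Yars, of the tyrosine enzyme, had means of 295 in both WT and KO. Its arrays read 256, 271 and 357 in the WT arrays, 593, 257 and 421 in the HET arrays and 260, 257 and 367 in the KO arrays, so HET replicate 1 stood far above the rest. With the batch as a block, which rests on that array, KO minus WT was 0.81 ± 0.33 (SE, limma, unadjusted p = 0.0265, adjusted p = 0.777), against -0.004 without the block. By catalytic class, the 9 class I genes other than Eprs had a median of -0.17 with 7 lower, and the 9 class II genes a median of -0.20 with 6 lower.

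**Figure D3:**
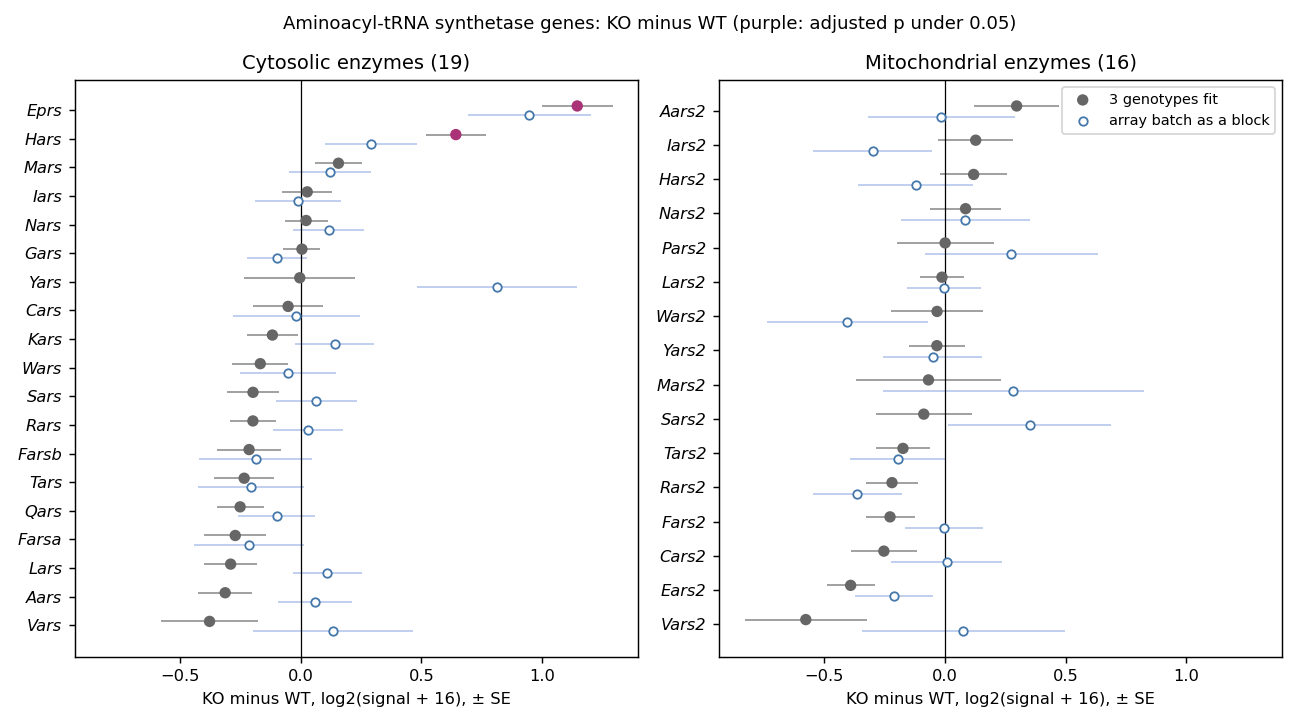
KO minus WT difference in log2(signal + 16) with its SE for 19 cytosolic and 16 mitochondrial genes, from the fit of 3 genotypes (filled; purple where the adjusted p is under 0.05) and from the fit with array batch as a block (open). Eprs and Hars are the purple points at 1.15 and 0.64, and several cytosolic genes that lie below 0 in the first fit, such as Lars and Aars, lie above it in the second.

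None of the 16 mitochondrial genes passed between KO and WT (limma, smallest adjusted p = 0.0595), and 3 had an unadjusted p under 0.05, against 17.2% of all genes tested. Of the 16 genes, 11 had a lower mean in KO, the median was -0.05 and the range ran from -0.58 (Vars2, valine) to 0.30 (Aars2, alanine). KO and WT signals were apart in 4, all of them lower, against 13.9% of all genes tested that were apart and lower. Ears2, whose enzyme charges mitochondrial tRNA with glutamate and so is the mitochondrial counterpart of the glutamate activity of Eprs, had the smallest p. It read 1140, 1145 and 1071 in the WT arrays, 1028, 818 and 1004 in the HET arrays and 847, 813 and 887 in the KO arrays, a difference of -0.39 ± 0.10 (SE). The KO arrays lay below all WT arrays, and HET replicate 2 lay among the KO arrays. Blocked by batch, Ears2 stood at -0.21 (adjusted p = 0.882), and without HET replicate 1 or HET replicate 2 it passed (adjusted p = 0.0179 and 0.0358). Over all 13028 genes 840 passed without HET replicate 1 and 223 without HET replicate 2, in place of 211. The 3 other probe sets of Ears2 above the filter differed by -0.50, 0.02 and 0.12.

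Vars2 read 110, 117 and 132 in the WT arrays, 139, 64.7 and 105 in the HET arrays and 54.0, 75.4 and 100 in the KO arrays, a difference of -0.58 ± 0.25 (SE, limma, adjusted p = 0.255). Fars2, of the phenylalanine enzyme, read 775, 815 and 816 in the WT arrays, 851, 671 and 788 in the HET arrays and 707, 665 and 676 in the KO arrays, a difference of -0.23 ± 0.10 (adjusted p = 0.263). Rars2, of the arginine enzyme, read 618, 540 and 546 in the WT arrays, 430, 448 and 508 in the HET arrays and 486, 505 and 463 in the KO arrays, a difference of -0.22 ± 0.11 (adjusted p = 0.318). In Vars2 and Fars2 the KO arrays lay below the WT arrays and HET replicate 1 read above both, while in Rars2 all HET arrays, of either batch, lay below the WT arrays. With the batch as a block Vars2 stood at 0.08, Fars2 at -0.01 and Rars2 at -0.36. Cars2, of the cysteine enzyme, read 402, 377 and 367 in the WT arrays, 363, 301 and 300 in the HET arrays and 306, 380 and 275 in the KO arrays, a difference of -0.25 ± 0.14 (adjusted p = 0.362). Aars2 read 179, 135 and 195 in the WT arrays, 155, 175 and 219 in the HET arrays and 216, 237 and 180 in the KO arrays, a difference of 0.30 ± 0.18 (adjusted p = 0.419). In these last genes the KO and WT arrays overlapped. Of the other 10 mitochondrial genes, Tars2 (threonine) was lowest at -0.17 and Iars2 (isoleucine) highest at 0.13.

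Between HET and WT no synthetase gene passed, as no gene of the whole array did (0% of 13028). An unadjusted p under 0.05 was reached by 5 of the 35 (11.5% of all genes, limma), and the arrays did not overlap in 8 (13.7% of all genes). Between KO and HET none passed either, where 2 genes of the array did (0.0154%), with an unadjusted p under 0.05 for 4 of the 35 (4.81% of all genes) and arrays apart in 5 (10.5%). Without HET replicate 1, Eprs and Hars passed between HET and WT, the latter at 0.45 (adjusted p = 0.0444). There WT and HET share no array batch, so genotype and batch cannot be told apart.

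Probe sets of one synthetase gene often disagreed. In 21 genes more than 1 probe set lay above the filter, and of the 30 probe sets other than the brightest 17 had its sign between KO and WT and 13 the opposite. Farsb read lower in KO on its brightest probe set (-0.21) and on a second (-0.47), but higher on 1435103_x_at, at 394, 415 and 339 in the WT arrays, 316, 733 and 678 in the HET arrays and 664, 713 and 572 in the KO arrays, a difference of 0.74 (limma, adjusted p = 0.115). On that probe set HET replicate 1 read with WT and HET replicates 2 and 3 with KO, along the array batches. Qars stood at -0.25 on its brightest and at 0.37 and 0.70 on its _x_at probe sets. In an _x_at probe set some probes match other sequences as well. Of the 8 such probe sets of synthetase genes 5 were higher in KO, with a median of 0.21, where 60.3% of all 1490 on the array were higher, with a median of 0.09. Of the 11 _a_at probe sets, which read several transcripts of a gene, 2 were higher (median -0.17), of the 40 plain _at probe sets 14 (median -0.07) and of the 6 _s_at probe sets 3 (median -0.10).

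**Figure D4:**
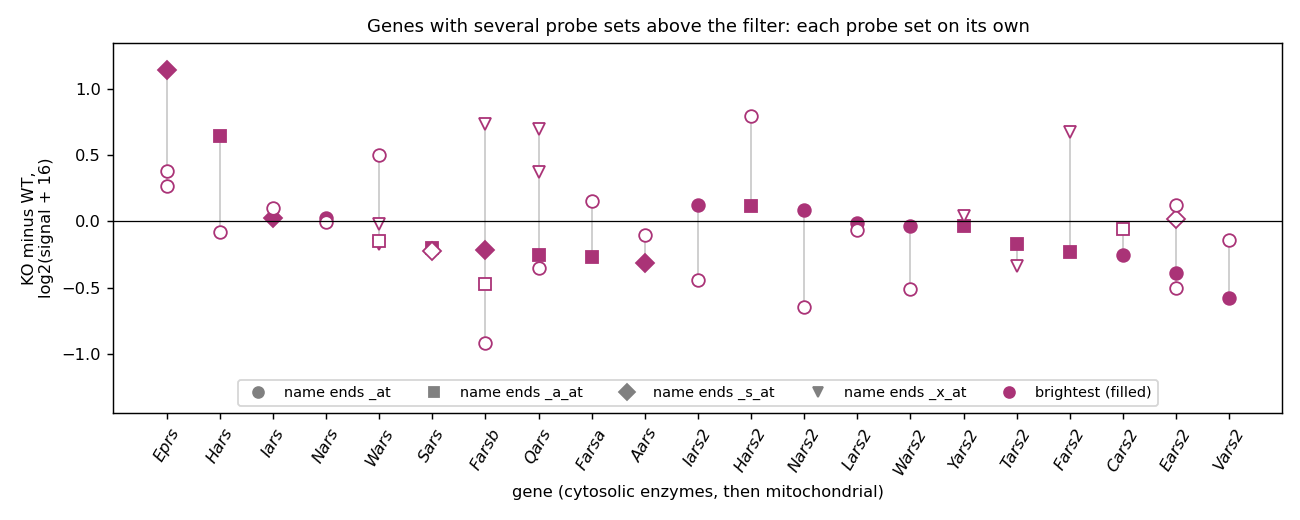
KO minus WT difference in log2(signal + 16) of each probe set above the filter, for the 21 synthetase genes with more than 1 (marker shape by probe set suffix, filled for the brightest). In Eprs all 3 points lie above 0, from 0.27 to 1.15, whereas Farsb and Qars have points on both sides.

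Eprs lies near Esrrg on chromosome 1, with 7 protein-coding genes between them in the RefSeq order. Of the 25 protein-coding genes on either side of Esrrg, 39 of 50 were tested. Eprs and Smyd2 passed between KO and WT, 2 of the 39, where 1.62% of all genes tested passed. Smyd2, a lysine methyltransferase gene on the other side of Esrrg, stood at -0.33 ± 0.07 (SE, limma, adjusted p = 0.0396). The 38 other than Eprs had a median of -0.03, with 17 higher and 21 lower. Bpnt1, which is next to Eprs and codes for a nucleotide phosphatase, was the lowest at -0.61 (adjusted p = 0.153), and Nek2, of a mitotic kinase, the highest at 0.45. Iars2, which lies beyond Bpnt1, stood at 0.13 (adjusted p = 0.736). Of the genes between Eprs and Esrrg 5 were tested, from -0.21 to 0.21 with a smallest adjusted p of 0.558, and Slc30a10, which adjoins Eprs on that side, was not tested. Others with small p were Mtarc2 (-0.33), Dusp10 (-0.55), Vash2 (0.26), Cenpf (-0.27) and Pacc1 (0.38), with adjusted p from 0.119 to 0.26. Blocked by batch, Smyd2 stood at -0.13 (limma, adjusted p = 0.889) and lost its call. So did Eprs (0.95, adjusted p = 0.502) and Esrrg (-1.89, adjusted p = 0.168), in a fit where 0.00768% of all genes passed. There Bpnt1 stood at -0.24, Mtarc2 at -0.01, Dusp10 at -0.28, Vash2 at -0.11, Cenpf at -0.41, Pacc1 at 0.59, Nek2 at 0.07 and Iars2 at -0.30. What part position beside the targeted gene has in the Eprs value was not tested.

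**Figure D5:**
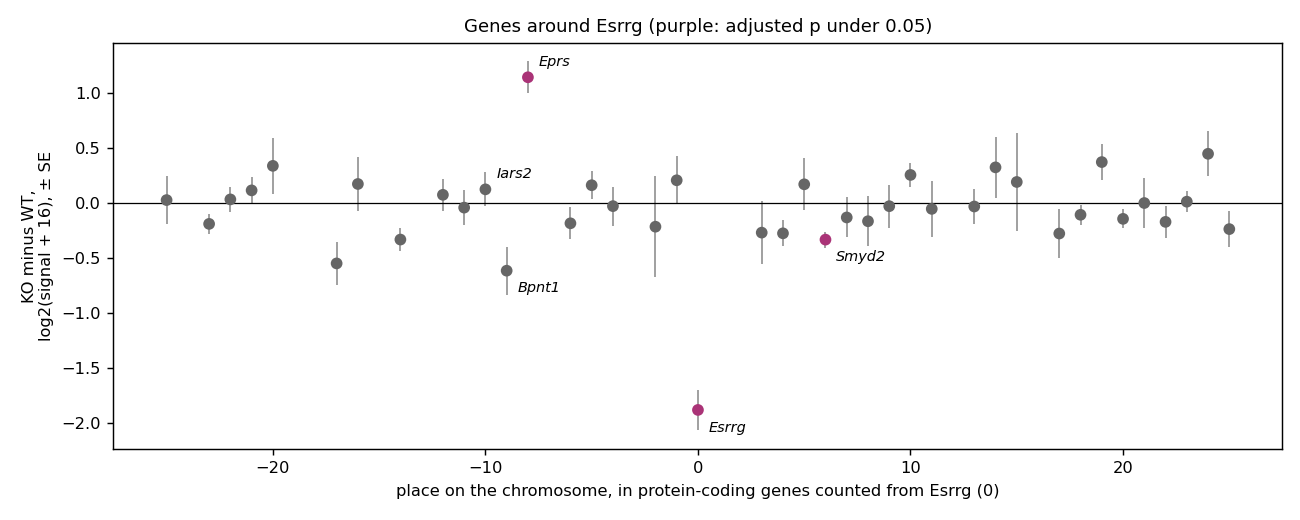
KO minus WT difference in log2(signal + 16) with its SE for Esrrg and the tested genes among the 25 protein-coding genes on each side, placed by gene order. Esrrg (-1.88), Eprs (1.15) and Smyd2 (-0.33) are the purple points, with an adjusted p under 0.05.

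The scaffolds of the complex did not pass the test. Aimp2 went from a mean of 1757 ± 164 in WT to 1433 ± 139 in KO (-0.29, adjusted p = 0.114) and Aimp1 from 1304 ± 55.9 to 1093 ± 38.2 (-0.25, adjusted p = 0.126; SD, n = 3, limma), while Eef1e1 stood at 0.13. Blocked by batch, they were at -0.34, -0.14 and -0.05. Of 10 accessory genes of tRNA charging 3 were higher, 7 lower and none passed (median -0.13). Qrsl1, of a subunit of the enzyme that turns mischarged mitochondrial glutamate tRNA into glutamine tRNA, went from 331 ± 47.0 to 605 ± 68.6 (0.84 ± 0.21, adjusted p = 0.0572), and was at -0.17 with the batch as a block.

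Of 31 tested genes of ATF4 and the amino acid response, 12 were higher and 19 lower in KO, with a median of -0.10 and 0.05 with the batch as a block. The one that passed was Eif4ebp1, a repressor of cap-dependent translation, from 4288 ± 180 in WT to 3219 ± 133 in KO (-0.41 ± 0.09, limma, adjusted p = 0.0339), at -0.07 with the block. Next by p were Mthfd2, a mitochondrial folate enzyme (-0.47, adjusted p = 0.0983), the transcription factor gene Cebpb (0.37, adjusted p = 0.165) and Eif2ak3, of the endoplasmic reticulum stress kinase PERK (0.40, adjusted p = 0.223). Aars, Gars and Tars, the synthetase genes with the ATF4 element in the promoters printed above, stood at -0.31, 0.005 and -0.23.

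The genes most like Eprs over the 9 arrays, by Pearson's r of log2 signal, were 0610010F05Rik (0.97), Kbtbd7 (0.96), Vdac3 (0.96), Nap1l3 (0.95) and Dbh (0.94). The 9 arrays share 3 genotypes and 2 array batches, so r describes a common pattern only. Of the synthetase genes Hars (0.81) was nearest and Ears2 (-0.84) most opposed, and Esrrg itself had an r of -0.88.

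Markers of other cell types were read beside these values. Kdr, a vascular endothelial receptor gene, fell between WT and KO (-0.74, limma, adjusted p = 0.0262). Of the 6 endothelial markers 4 were lower and 2 higher (median -0.03, blocked 0.16), and the summed endothelial signal was 4216 to 4595 in WT and 3949 to 4328 in KO. Hbb-b2, a globin gene, rose (1.05, limma, adjusted p = 0.0211). Of the 3 erythroid markers tested 2 were higher and 1 lower (median 0.14, blocked 0.49), with Epb42 and Hba-a1 under the filter. The summed erythroid signal was 1319 to 1956 in WT and 1772 to 2203 in KO. Tbx18, an epicardial transcription factor gene, rose (0.84, limma, adjusted p = 0.032). Of the 4 epicardial markers 3 were higher and 1 lower (median 0.19, blocked -0.001), and the summed epicardial signal was 624 to 895 in WT and 867 to 1097 in KO. With the batch as a block Kdr, Hbb-b2 and Tbx18 stood at -0.25, 0.49 and 0.23. No atrial, fibroblast, smooth muscle, macrophage and leukocyte or lung and liver marker passed. Of the fibroblast markers 6 of 7 were higher in KO (median 0.13, blocked 0.22) and of the smooth muscle markers 3 of 4 (median 0.26, blocked 0.46). The summed fibroblast signal was 32510 to 37177 in WT and 36606 to 37819 in KO, and the summed smooth muscle signal 13606 to 15854 and 15309 to 17936. Of the atrial markers 1 of 3 was higher (median -0.19, blocked 0.16), of the macrophage and leukocyte markers 3 of 6 (median 0.03, blocked 0.27) and of the lung and liver markers both tested (median 0.35, blocked 1.18), where Afp, Sftpb and Ttr were under the filter. The part of these cell types in the synthetase values was not tested.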

How the data were processed

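The deposited values are linear MAS5 signal intensities of 9 Affymetrix arrays, 1 per sample, computed by the authors array by array, per the submitters' processing notes (version not given in the sources used here). Each column has a mean of 200 without its extremes, so arrays were scaled but not otherwise normalized to each other. Per the labels' protocols, 6 ug of total RNA gave the labelled cRNA. The number of arrays limits the precision.

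Of 45037 probe sets other than 64 controls, 34945 name 1 gene. For 34741 the symbol was found by gene ID in the RefSeq gene table of GRCm38.p6, and 204 kept the array's symbol. Signals became log2(signal + 16), which understates differences of dim genes. The probe set with the highest mean stood for each gene, and genes under the 40th percentile were left out, leaving 13028. limma 3.58.1 in R 4.3.3 (1 mean per genotype over all 9 arrays, eBayes with an intensity trend, two-sided) gave p-values, adjusted by Benjamini-Hochberg over all genes of a comparison, and genes under 0.05 were called. The fit was tested on simulated data.

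Genes were named by rule: array values for Eprs, each gene called, and the 6 cytosolic and 6 mitochondrial genes with the smallest p between KO and WT; up to 4 genes of each list; the called and smallest-p neighbours of Esrrg; and the 5 genes most like Eprs. The genes, lists and alternatives were chosen with earlier results of these data known. The array batch was read from the spike-in ratio at its widest gap, which was chosen after seeing the data, as was leaving out the 2 arrays of lowest quality weight. Replicate numbers did not pair the samples. Other alternatives were normalization, pseudocount, filter, choice of probe set, no trend, array weights, only the arrays compared and leaving out each array.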

Additional observations from a re-analysis of the deposited data

How the results depend on the processing

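Eprs was higher in KO than in WT in all 23 alternatives, from 0.54 to 1.33 on the log2 scale, and passed the adjusted threshold in 20 (limma). It did not pass with the mean of its probe sets (0.54, adjusted p = 0.167), without the intensity trend (1.15, adjusted p = 0.102) or with the array batch as a block (0.95, adjusted p = 0.502). Alternatives that change only the filter, the trend, the replicate block or the use of HET arrays keep the same KO and WT values. So does testing each probe set on its own. Their difference of 1.15 could not change, and only its p could. Leaving out each array gave 1.01 to 1.33 for KO minus WT, 0.49 to 0.80 for HET minus WT and 0.46 to 0.60 for KO minus HET. HET minus WT passed in 1 of 23 alternatives, without HET replicate 1 (0.68, adjusted p = 0.0258), where WT and HET share no array batch. KO minus HET passed in none. The count of 2 synthetase genes called between KO and WT was 1 with arrays shifted to one median, 0 with the mean of probe sets, without the trend or with the array batch as a block, and 4 with only the 6 arrays compared. Leaving out each array gave 1 to 5, with 5 without HET replicate 1 and 1 without WT replicate 2, WT replicate 3 or any one KO array. For HET minus WT the count of 0 became 2 without HET replicate 1 (range 0 to 2). Calls over all genes between KO and WT, 211 in the main fit, moved along. They were 840 without HET replicate 1 and 773 with only the 6 arrays compared. They were 24 with arrays shifted to one median, 10 without WT replicate 3, 7 with the mean of probe sets, 6 without the trend and 1 with the array batch as a block. Hars passed in 14 of 23 alternatives and lost its call in 9, and Ears2 gained one in 5. The 2 neighbours of Esrrg called became 1 with quantile normalization, arrays shifted to one median, no filter or the replicate block, 0 with the mean of probe sets, without the trend or with the array batch as a block, and 1 to 3 leaving out each array, with 1 when any one WT or KO array was left out. The median of the other cytosolic genes ran from -0.22 to 0.04, above 0 only with the array batch as a block, and that of the mitochondrial genes from -0.16 to -0.01. With arrays shifted to one median 12 of the 18 other cytosolic and 8 of the 16 mitochondrial genes were lower, in place of 13 and 11.

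The samples share only a replicate number: same-numbered arrays deviated together with a correlation from -0.0428 to 0.0456. With the replicate block Eprs stood at 1.15 between KO and WT (adjusted p = 0.00145) and HET minus WT had an adjusted p of 0.268, and the block changed no synthetase call in any of the 3 comparisons. It left 127 genes called in place of 211.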

Other observations

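Other genes of translation were read on the same arrays. Of 6 cytosolic elongation factor genes 4 were lower in KO than in WT and none passed (limma, median -0.10). Eef1d, a subunit of the nucleotide exchange factor for Eef1a, went from 4784 ± 533 to 3768 ± 156 (-0.34, adjusted p = 0.0696), Eef1a2, a muscle form of the factor that delivers charged tRNA, from 5872 ± 495 to 4853 ± 341 (-0.27, adjusted p = 0.0966) and Eef1b2 from 3353 ± 63.5 to 3954 ± 197 (0.24, adjusted p = 0.217), all as SD with n = 3. With the array batch as a block they stood at -0.09, -0.09 and -0.19. Of 8 mitochondrial translation factor genes 7 were lower (median -0.26), and Tufm, the mitochondrial elongation factor that delivers charged tRNA, was the one called (-0.74, adjusted p = 0.0262; -0.22 with the block). Gfm1, a mitochondrial translocase, was at -0.32 (adjusted p = 0.0582) and -0.30 with the block, and Mtif2, an initiation factor, was at 0.45 (adjusted p = 0.078).

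Of 20 tRNA modification and processing genes 14 were lower and none passed (median -0.11, and 0.02 with the block). Those with the smallest p were Mto1 (-0.38, adjusted p = 0.12), Pus1 (-0.33, adjusted p = 0.126), Elp3 (-0.34, adjusted p = 0.163) and Alkbh1 (-0.29, adjusted p = 0.292). Of 9 genes that supply glutamate and proline, the amino acids that the Eprs enzyme joins to tRNA, 4 were higher, 5 lower and none passed (median -0.03). Oat, ornithine aminotransferase, went from 2562 ± 73.2 to 2907 ± 125 (0.18, adjusted p = 0.217) and Aldh18a1, which begins proline synthesis, from 178 ± 42.9 to 254 ± 43.2 (0.49, adjusted p = 0.272; -0.29 with the block).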
